A study of Homo sapiens with 2 samples.

Results

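The chromosomal interactions of TCF3::HLF were examined at 10 genes of the hematopoietic stem cell program and of the classic target set of this fusion protein: LMO2, TAL1, LYL1, LDB1, GATA2, MYB, GFI1, MECOM, SNAI2 and ANXA2. An interaction was assigned to a gene when at least 1 of its 2 bins lay within 50 kb of the gene body. By this rule 53 of the 49245 listed interactions belonged to the 10 genes. The rule used positions only, but every listed interaction had passed a q-value under 0.01, which depends on contact counts. The genes were chosen with earlier results of these data known. The material was HAL-01, a leukemia cell line with t(17;19) that stably expresses Cas9GFP and whose wild-type TCF3 was knocked out with an sgRNA (wt-TCF3 KO). All samples carried this genotype. The immunoprecipitation used an antibody against E2A, the product of TCF3, and the samples used here held neither a control antibody nor a second condition. The 2 biological replicates were merged by the authors before interactions were called. None of the values below therefore has a replicate error, and no test between groups was possible.

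TCF3::HLF joins the transactivation domains of TCF3 to the basic leucine zipper of HLF, so that the fusion recognizes the palindromic site of the HLF family. LMO2 and LDB1 are adaptor proteins without DNA binding of their own, and they bridge the basic helix-loop-helix factors TAL1 or LYL1 to GATA2 in a complex that is known for its role in blood stem cells. MYB, GFI1 and MECOM are further transcription factors of early blood cells, whereas SNAI2 (a zinc finger repressor, also called Slug) and ANXA2 (a phospholipid-binding protein) are known as genes downstream of the fusion. HiChIP combines chromatin immunoprecipitation with proximity ligation: a read pair that joins distant bins shows that both pieces of DNA were close to each other in chromatin held by the antibody. The contact count is the number of such read pairs for a pair of 5-kb bins.

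The sites below are exact matches to the HLF motif, written TTACGTAA or TTATGTAA, in bins that carried 2 or more interactions of a gene or its strongest interaction. Both strands were searched. TTACGTAA reads the same on both strands. Each line gives 30 bases of hg38 on the strand named, with the motif in capitals. The partner bin of SNAI2 inside SNTG1 also held 2 matches, whose sequences are not shown.
MYB bin 6.31 kb from the MYB start, intergenic, chr6:135173643-135173672, minus strand: ctcctctctgcTTATGTAAgtgctacccat
MYB bin inside MYB, intron, chr6:135205440-135205469, minus strand: tgggtttcaacTTATGTAAtggtaattgtc
MYB partner bin inside HBS1L, intron, chr6:135042491-135042520, minus strand: tgttttcttaaTTATGTAAattagaagttt
MYB partner bin inside HBS1L, intron, chr6:135044570-135044599, minus strand: cagtctaagtaTTATGTAAtgctaagatgt
LMO2 partner bin beside FBXO3, exon of the noncoding FBXO3-DT, chr11:33775608-33775637, plus strand: gcgataacgctTTATGTAAagtgcctggcc
TAL1 partner bin inside AGBL4, intron, chr1:49100826-49100855, minus strand: aaggagataaaTTATGTAAaatgcctagca
LDB1 bin beside HPS6, intergenic, chr10:102064682-102064711, plus strand: tcttagttaagTTACGTAAtctctctgtgc
GATA2 bin upstream of GATA2, intergenic, chr3:128525477-128525506, minus strand: ctatatctcatTTATGTAAaaaaattcgta
Of all 53535 bins in the list, 31.5% held at least 1 such match, and of the 78 bins of the 10 genes 27 did (34.6%). A match is a description of the sequence and does not show that the fusion was bound there.

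At least 1 interaction was listed for 9 of the 10 genes, against 84.3% of all 19970 protein-coding genes counted by the same rule. The numbers were uneven. MYB had 17 interactions, LYL1 had 12 and LMO2 had 9, and these genes together accounted for most of the 53. ANXA2 followed with 4 interactions. TAL1 and GATA2 had 3 each, LDB1 and GFI1 had 2 each, SNAI2 had 1 and MECOM had none. Over all protein-coding genes the median was 4 interactions, with quartiles of 1 and 8 and a maximum of 137. Hence MYB had more interactions than 90.7% of protein-coding genes, LYL1 more than 83.4% and LMO2 more than 75.7%, whereas ANXA2 stood at the median and the other genes with interactions below it. Because gene bodies differ in length, the numbers were also expressed per 100 kb of window. This gave 12.3 for MYB, 11.5 for LYL1 and 6.74 for LMO2, against a median of 2.41 over all protein-coding genes. GATA2 (2.64), TAL1 (2.59) and ANXA2 (2.57) then lay close to that median, and GFI1 and LDB1 (1.76 each) and SNAI2 (0.960) lay below it. The order of the genes was the same when the contact counts of merged neighboring bin pairs were added up per gene, except that GATA2 (98 read pairs) and ANXA2 (97 read pairs) changed places.

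**Figure D1:**
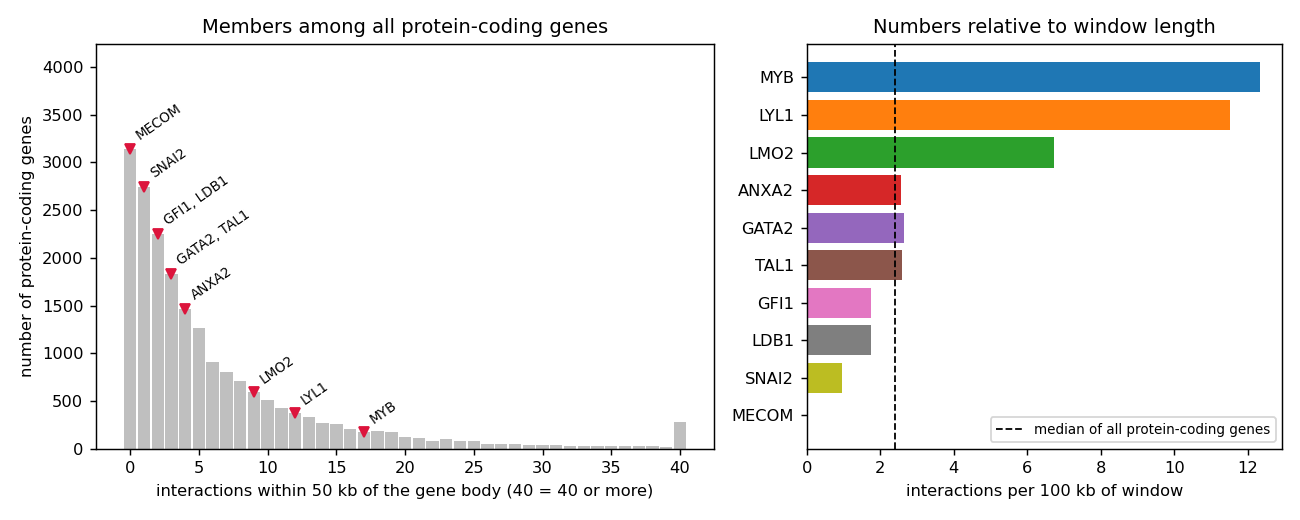
The left panel shows how many protein-coding genes (y axis) had each number of interactions within 50 kb (x axis, with 40 standing for 40 or more), and triangles mark the 10 genes. The right panel shows interactions per 100 kb of window for each gene, with the median of all protein-coding genes (2.41) as a dashed line: MYB, LYL1 and LMO2 lie far to the right of it, and MECOM is at 0.

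The single interactions of these genes were of ordinary strength. Their contact counts ran from 14 to 39 with a median of 26, beside a median of 24 and a range of 7 to 615 over the whole list. In the list, 3696 interactions (7.51%) had a contact count above the largest of the 10 genes. Since contact counts decline with distance, each was also divided by the median of all listed interactions at the same distance. The median ratio was 1.02, and 27 of the 53 exceeded 1, compared with 47.6% of the whole list. The highest ratio, 1.59, belonged to TAL1, and the highest in the whole list was 30.75. A q-value under 1e-05 was reached by 39 of 53 interactions (73.6%, Wilson 95% interval 60.4 to 83.6), against 66.5% of all interactions. The median distance was 225 kb, beside 255 kb for the list. It rested on MYB and LYL1, without which it was 522.5 kb over 24 interactions. Distances above 1 Mb were found for 13 of 53 (24.5%, interval 14.9 to 37.6), against 13.7% overall. These 13 were spread over LMO2 (3), TAL1, LYL1 and MYB (2 each), and GATA2, GFI1, SNAI2 and ANXA2 (1 each).

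**Figure D2:**
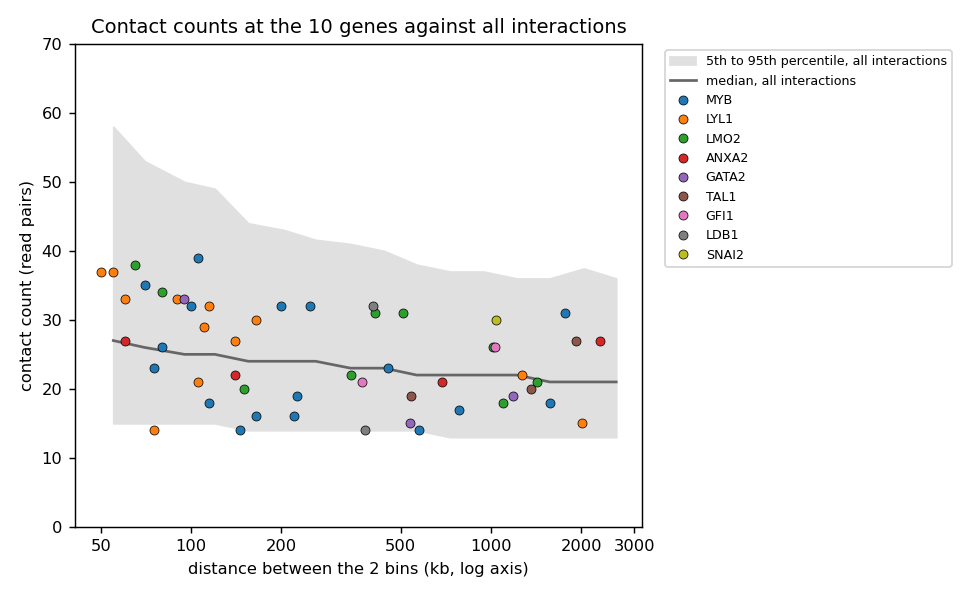
Each point is 1 of the 53 interactions, colored by gene, with the distance between its bins on a logarithmic x axis and its contact count on the y axis. The line is the median and the grey band the 5th to 95th percentile of all 49245 interactions by distance: the points lie on both sides of the line, between 14 and 39 read pairs.

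The share of the 10 genes with a start site in an anchor was near the background. An annotated transcription start site lay in an interacting bin for 2 of the 10 genes, LYL1 and LMO2, against 26.6% of all protein-coding genes. For LYL1 the bin at chr19:13100001-13105000 contained the starts of all 3 transcripts and took part in 4 interactions. For LMO2 the bin at chr11:33865001-33870000 contained 3 of 6 transcript starts and took part in 1 interaction. MYB was close to this definition, with an anchor 0.748 kb from an annotated start and another 6.31 kb from its 5′ end. None of the other genes had an anchor within 10 kb of a start. In the opposite direction, 13 of 53 interactions (24.5%) had the start of any protein-coding gene in at least 1 bin, beside 24.0% of the list, and 8 of these 13 were at LYL1. A bin inside the body of one of the genes was used by 14 of the 53, namely 7 at MYB, 4 at LYL1 and 3 at LMO2. The same share over all protein-coding genes is not given here. The protein-coding start closest to the near bin was that of the gene itself in 39 of 53 interactions. Of these 39, 16 were at MYB and 9 at LMO2. For TAL1 (0 of 3) and LDB1 (0 of 2) the closest start was always that of a neighbor, and for LYL1 it was that of a neighbor in the other 6 of 12. The rule takes bins within 50 kb of a gene, which favors its own start, and no share over all protein-coding genes is given beside this count.

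**Figure D3:**
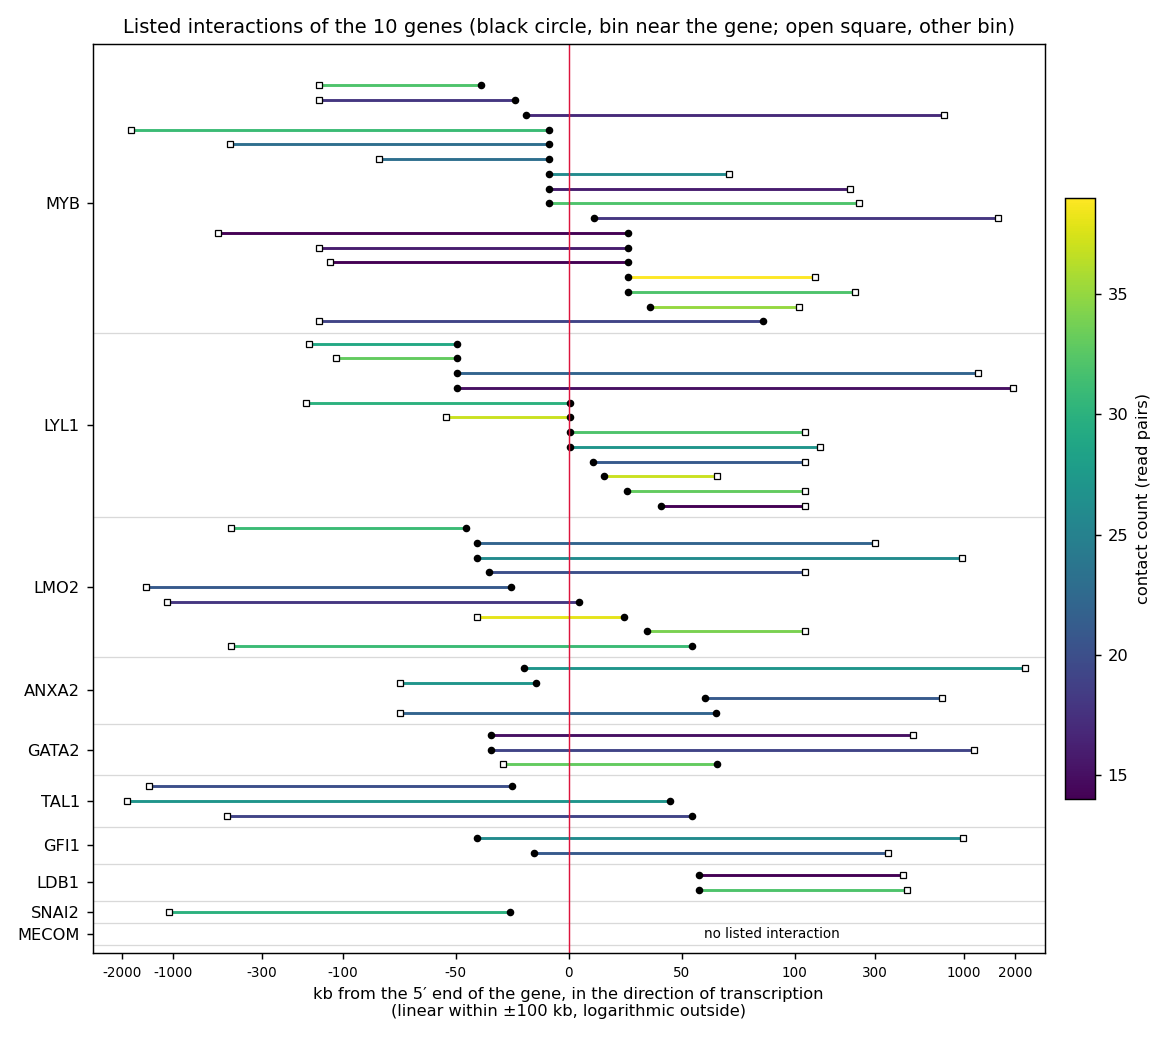
Each horizontal line is 1 interaction, drawn from the bin near the gene (black circle) to the other bin (open square) by distance in kb from the 5′ end of the gene, with positive values downstream; the axis is linear within 100 kb and logarithmic outside, and color gives the contact count. MYB and LYL1 have lines on both sides of the start, TAL1 and SNAI2 reach upstream, and GFI1 and LDB1 reach downstream.

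MYB, a regulator of proliferation and differentiation of blood progenitors, had the largest number of interactions. With a q-value under 1e-05, or with at least 20 read pairs, 9 of its 17 were left, and LYL1 then had more, with 10 under each limit. The locus lies between HBS1L, a gene of translation surveillance, and AHI1, a ciliary gene, and the HBS1L-MYB interval is known for distal enhancers of MYB. Of the 17 interactions, 6 ended in the body of HBS1L, with contact counts of 14 to 32, and 5 ended in the body of AHI1, with contact counts of 16 to 39. A pair of bins near or inside MYB carried 11 of the 17 interactions. The upstream bin at chr6:135170001-135175000 took part in 6, more than any other near bin of the 10 genes, and the intronic bin at chr6:135205001-135210000 took part in 5. By comparison, 6.49% of all bins in the list had 6 or more interactions and 78.0% had 1. The upstream bin contacted bins on both sides, with contact counts of 23 to HBS1L, 16 and 32 to AHI1 26 to the stretch between MYB and AHI1 and 23 to an intergenic bin 455 kb upstream. Its longest contact reached 1760 kb to EYA4, with a contact count of 31. The strongest of all 53 interactions joined the intronic bin to the body of AHI1 at chr6:135310001-135315000. It had 39 read pairs (exact Poisson 95% interval 27.7 to 53.3) over 105 kb, which was 1.56 times the median at that distance. The weakest from the same bin had 14 read pairs (7.65 to 23.5), to HBS1L over 145 kb, and the same number to LINC03002, a long noncoding RNA gene, over 575 kb. These intervals do not overlap that of the strongest. The interactions were picked as extremes by their contact counts and span different distances, and the difference was not tested. The HBS1L bin at chr6:135040001-135045000, with its pair of motifs, was shared by 4 interactions of MYB, with contact counts of 32, 18, 16 and 19 to bins from upstream of MYB to beyond its 3′ end. No bin of any MYB interaction contained a protein-coding start site, and the bin with 37 of the 41 annotated MYB transcript starts was in no interaction. In addition, 18 interactions passed over MYB with both bins more than 50 kb outside its body, a number above that of 97.4% of protein-coding genes, whose median was 5.

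LYL1, the close relative of TAL1, had the only start bin of the 10 genes with several contacts. Its start bin joined 4 bins. The nearest, 55 kb upstream beside IER2, an immediate-early gene, had 37 read pairs (26.1 to 51.0). The contact downstream, 115 kb away beside NFIX, had 32 read pairs (21.9 to 45.2). The contact inside CACNA1A, a calcium channel gene, had 30 read pairs (20.2 to 42.8) over 165 kb, and that beside DAND5 had 27 read pairs (17.8 to 39.3) over 140 kb. The 4 intervals overlap, so no order among these contacts can be read. The NFIX-side bin at chr19:12985001-12990000, 5.48 kb from the NFIX start, was shared by 4 of the 12 interactions, with contact counts of 14 to 33. A further 4 interactions belonged to the bin at chr19:13150001-13155000 that holds the starts of IER2 and STX10. They reached CACNA1A with 29 and 33 read pairs, ZNF69 with 22 over 1265 kb and the SPC24 body with 15 over 2005 kb. LYL1 lies in a gene-dense stretch, and the start site closest to the near bin was that of NFIX or STX10 in 6 of the 12. The interaction with the smallest p-value joined bins inside NFIX 50 kb apart and had 37 read pairs.

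At LMO2 the strongest interaction joined a start bin to the upstream flank. The bin with 3 of its 6 transcript starts joined chr11:33930001-33935000, 65 kb away on the upstream side, with 38 read pairs (26.9 to 52.2) and 94 read pairs over its merged group. All 9 interactions had LMO2 as the gene with the closest start to the near bin. A bin 0.458 kb from the start of FBXO3, which encodes an F-box protein, was shared by a contact of 34 read pairs to the 3′ end of LMO2 and one of 20 read pairs to its upstream flank. A bin in ABTB2 was likewise shared, with 31 read pairs each over 410 and 510 kb. The 510-kb interaction had the smallest p-value of the LMO2 set (q-value 2.41e-14). The upstream bin that was joined to the start bin also reached the KIAA1549L body over 340 kb (22 read pairs) and the QSER1 body over 1015 kb (26 read pairs). The remaining contacts extended to PDHX with 18 read pairs and to SLC1A2 with 21, each over more than 1 Mb. At LMO2, 20 further interactions lay between 50 and 100 kb from the gene body. The nearest of them, 57.9 kb away, again ended at ABTB2 with 29 read pairs, and the farthest inside the window, 42.9 kb away, had 31.

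**Figure D4:**
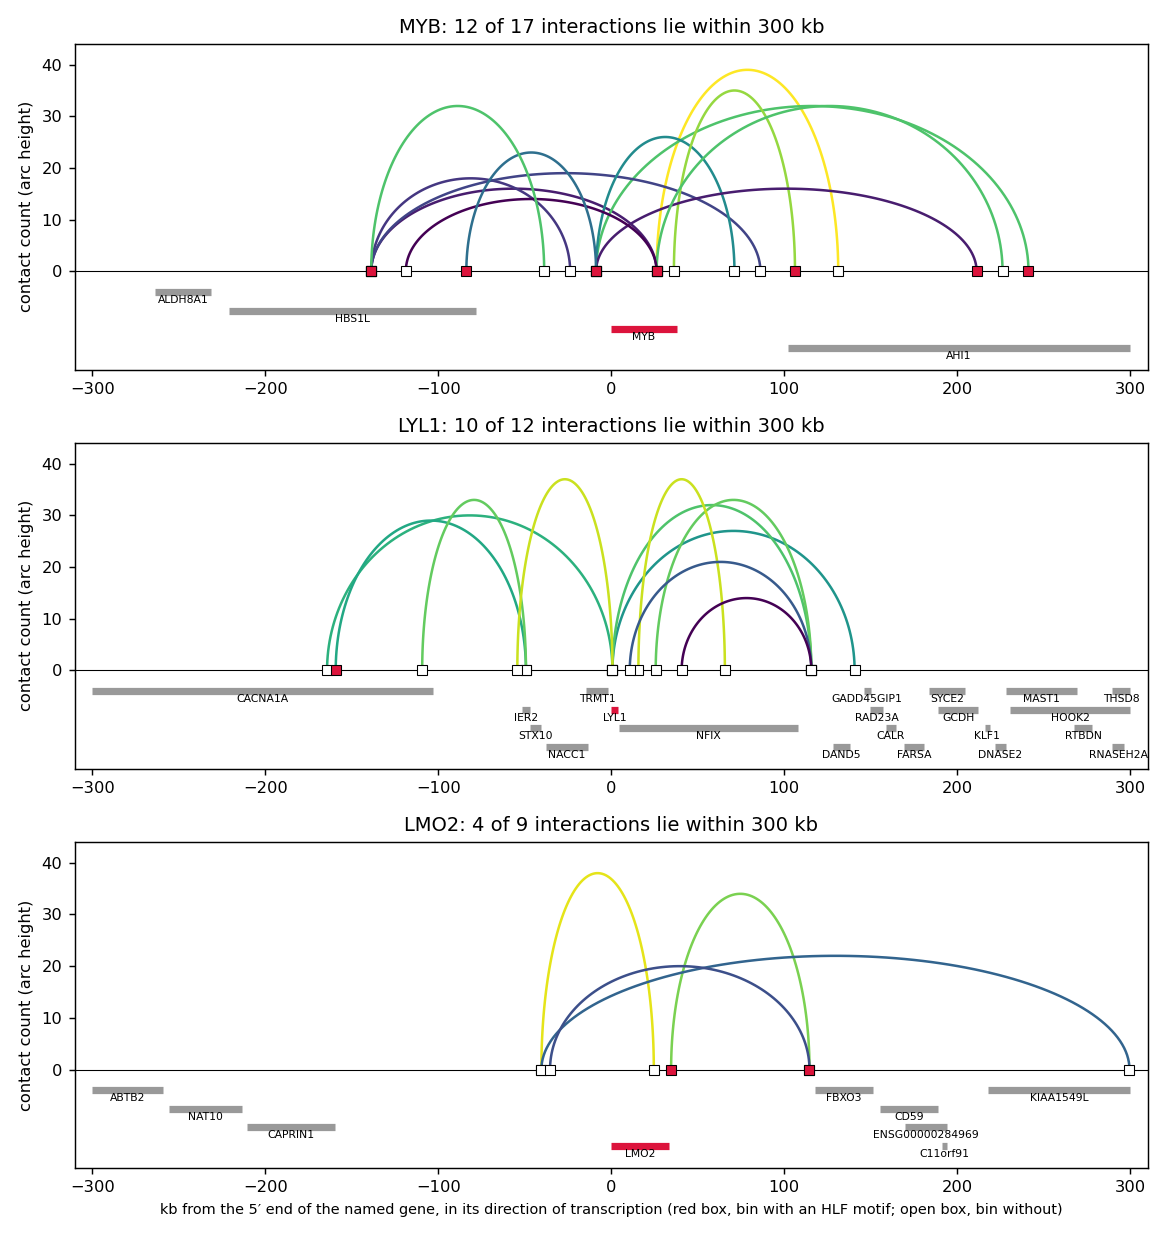
Arcs show interactions at MYB, LYL1 and LMO2, with the x axis in kb from the 5′ end of the named gene along its transcription and arc height equal to the contact count; bars below are protein-coding genes, with the named gene in red. Boxes mark the bins, red with and open without an HLF motif: every MYB arc has at least 1 red box, whereas 1 box at LYL1 is red. The longer interactions (5 at MYB, 2 at LYL1 and 5 at LMO2) reach past the plotted range.

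Of the genes of the LMO2 complex, GATA2, TAL1 and LDB1 had few interactions and none at their own starts. GATA2, a zinc finger factor required for stem cell maintenance, was enclosed by its strongest interaction. The bins at chr3:128425001-128430000 and chr3:128520001-128525000 lie on either side of the gene, 95 kb apart, and were joined by 33 read pairs (22.7 to 46.3), or 64 over the merged group. The other 2 interactions left from the upstream bin whose motif is printed above and ran downstream to the MGLL body (15 read pairs, 535 kb) and to LINC02016, a long noncoding RNA gene, 1185 kb away (19 read pairs). For TAL1, the basic helix-loop-helix partner of LMO2, all 3 interactions went to the upstream side over 540 to 1915 kb, passing or starting in the neighbor STIL. The strongest joined the bin with the start of PDZK1IP1, the neighbor downstream of TAL1, to AGBL4 over 1915 kb with 27 read pairs (17.8 to 39.3). That interaction had the highest ratio to the same-distance median, 1.59, from 17 listed interactions at that distance. The second AGBL4 contact had 20 read pairs and came from the body of STIL, and the third, with 19, ended between genes. LDB1, the scaffold of the complex, had 2 interactions from 1 bin beside HPS6, at chr10:102060001-102065000. Both ended in FBXW4, an F-box gene, with 32 read pairs (21.9 to 45.2) and 14 read pairs (7.65 to 23.5). A contact of 42 read pairs lay just outside its window, 61.5 kb from LDB1.

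GFI1, a zinc finger repressor of blood stem cells and lymphocytes, had 2 interactions, and both left from the upstream side. One started in EVI5, its neighbor, and reached a bin 0.851 kb from the start of CDC7, a cell cycle kinase gene, over 1030 kb with 26 read pairs (17.0 to 38.1). The second ended in BTBD8 over 370 kb with 21 read pairs (13.0 to 32.1), and the intervals overlap. GFI1 also had 13 interactions that passed over it in the same sense, more than 90.9% of genes. MECOM, a zinc finger factor of stem cells that is activated by rearrangements in myeloid leukemia, had the longest window of the 10 genes, 680 kb, and no interaction. In all, 15.7% of protein-coding genes had none, as did 21 of the 236 genes with a window at least as long as that of MECOM (8.90%), whose median was 9.5. The nearest anchor lay 56.2 kb from its body and had 26 read pairs with a bin 890 kb away. Interactions that passed over MECOM numbered 2, with 20 and 28 read pairs. Since the list holds only interactions past the threshold, a number of 0 sets no upper limit on contacts at MECOM.

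Of the genes known as being downstream of the fusion, SNAI2 had fewer interactions than the median gene and ANXA2 as many. For SNAI2 the single interaction joined a bin 23.3 kb from its start to the SNTG1 body, 1035 kb away on chromosome 8, with 30 read pairs (20.2 to 42.8) and 1.43 times the same-distance median. The SNTG1 bin took part in 51 interactions. ANXA2 had 4 interactions, of which 2 ended in the bin with the start of ICE2, a subunit gene of a transcription elongation complex for small nuclear RNAs. Those had 27 read pairs (17.8 to 39.3) over 60 kb and 22 read pairs (13.8 to 33.3) over 140 kb. ANXA2 also reached the GTF2A2 start bin over 685 kb (21 read pairs) and the ALDH1A2 body over 2310 kb (27 read pairs), the longest distance among the 53. No ANXA2 interaction exceeded its same-distance median by more than 1.02 times.

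The HLF motif was found in at least 1 bin of 33 of the 53 interactions (62.3%, Wilson 95% interval 48.8 to 74.1), against 66.8% of all interactions. The genes differed widely around this share. A motif was present for 17 of 17 interactions of MYB and for 1 of 12 of LYL1. It was present for 5 of 9 interactions of LMO2, 3 of 3 of TAL1, 2 of 2 of LDB1, 2 of 3 of GATA2, 1 of 2 of GFI1, 1 of 1 of SNAI2 and 1 of 4 of ANXA2. Motifs in both bins were found for 9 interactions (17.0%, beside 16.2% overall), and 5 of the 9 were at MYB. The interactions of 1 gene share bins and are not independent. The 17 of MYB included 10 bins with a motif, but most used 1 of a few of these. The upstream bin had 6 interactions, the intronic bin 5 and the shared HBS1L bin 4. Base composition moved with the motif. The median G+C content was 38.8% for bins of MYB and 55.5% for bins of LYL1, beside 41.1% for all bins. Among all interactions, the share with a motif was 76.0% where the mean G+C content was below 40%, and 42.5% where it was 50% or more. All 12 LYL1 interactions belonged to the latter class, together with 1 of GATA2, whereas 13 of the 17 MYB interactions belonged to the former. Within these classes the motif was present in 1 of the 13 interactions of the 10 genes and in 14 of 15, respectively. The part of base composition in the difference between MYB and LYL1 was not tested. In the promoter windows of RefSeq (hg38, 250 bases before to 50 after the start), the motif was found in 1.01% of 35116 windows, and in 0 of the 8 genes with a window.

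**Figure D5:**
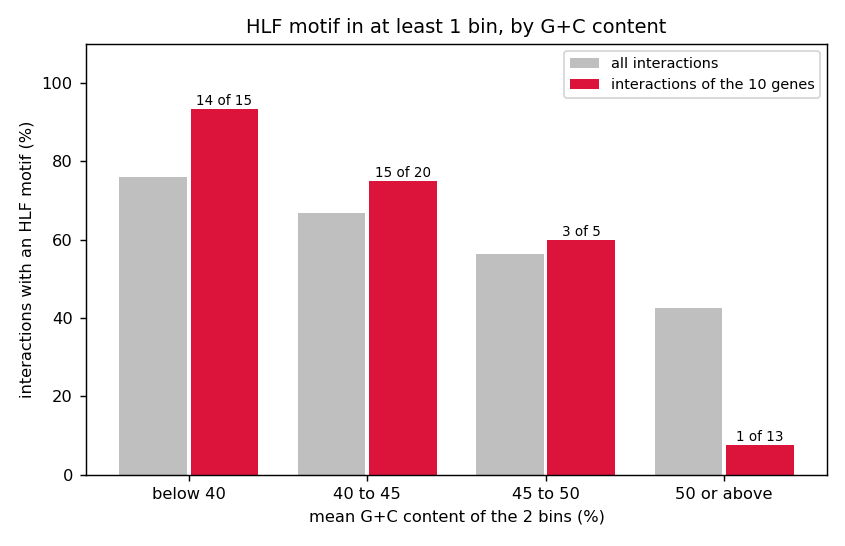
Bars give the percentage of interactions with an HLF motif in at least 1 bin (y axis), by the mean G+C content of both bins (x axis), for all interactions (grey) and for those of the 10 genes (red, with numbers above). Grey bars decline from 76.0% to 42.5% with G+C content, and red bars decline from 14 of 15 to 1 of 13.

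Of the 53 interactions, 5 (9.43%) had a bin with 10 or more interactions, against 32.0% of the list. Counted by bins, the order was reversed. Of the 78 bins of the 10 genes, 5 had 10 or more interactions, against 1126 of all 53535 bins. Neither difference was tested, since interactions share bins. In each of the 5 interactions the crowded bin was the far one: SNTG1 for SNAI2, PDHX (23 interactions) and SLC1A2 (14) for LMO2, AGBL4 (15) for TAL1 and PDE7B (11) for MYB. On the side of the genes, 30 of 37 near bins had 1 interaction each, near the 78.0% of all bins in the list. Over near and far bins together it was 47 of 78 (60.3%).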

How the data were processed

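HiChIP was performed in HAL-01 cells, and 1 list from 2 merged replicates was analysed. The authors trimmed reads with Trim Galore 0.6.6, aligned them to hg38 with BWA-MEM, parsed pairs with pairtools without the dedup step, and passed them to FitHiChIP (bins of 5 kb, distances of 50 kb to 3 Mb, q-value under 0.01, nearby contacts merged). MACS2 peaks served as reference; the FitHiChIP version is not given in the sources used here. The deposited contact counts and their group sums are not normalized. The contact counts add up to 1268490 over the list. The deposited p-values and q-values come from the FitHiChIP background for distance and coverage. The deposited fraction, which says how much of a merged group was significant, entered no result.

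The bins were matched to GENCODE release 44, with 0 bins past an hg38 chromosome end. The numbers of interactions, distances, motifs and G+C contents were computed for the 10 genes and for all protein-coding genes on chromosomes 1 to 22 and X. For each gene the text names the interaction with the largest contact count, the one with the smallest p-value, those at its start sites and its bin with most interactions. Further bins, such as shared and crowded ones, were chosen after their values were seen. Poisson intervals of counts are exact and Wilson intervals of shares are at 95%; both cover counting error only, and since read copies were kept, the true error is larger. The genes and comparison lists were chosen with earlier results of these data known. No set was tested. Counting and motif search were tested on simulated data. Alternatives were other windows, thresholds, distances, start sites and motif forms. Scripts ran in Python 3.11.15 with pandas 2.3.3, numpy 2.4.6, matplotlib 3.10.9 and scipy 1.17.1.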

Additional observations from a re-analysis of the deposited data

How the results depend on the processing

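The replicates were merged before calling, so no value without a replicate could be computed. No paired analysis was possible because the list carries no replicate columns and the result comes from no test. The number of interactions of the 10 genes depended on the window: 14 inside the gene bodies, 24 within 10 kb and 109 within 100 kb, beside 53 within 50 kb. With 100 kb, LMO2 had 29, as had MYB, SNAI2 had 5 and MECOM had 3. Counting only the 5′ end of the gene left 1 gene with a start in an anchor (13.5% of all genes), and allowing 10 kb gave 3 (55.1%). With TTACGTAA alone, 7.55% of interactions held a motif, beside 8.34% of the list. Without MYB and LYL1 (left out after seeing the data), the median distance was 522.5 kb over 24 interactions, and the share with a motif was 62.5%. Stricter q-values (49 interactions under 0.001), 20 or more read pairs (38), distances up to 1 Mb (40) and merged bin ranges (53) kept the total within 1.5 times, as did a q-value under 1e-05 (39). Single genes moved more: with a q-value under 1e-05, and likewise with 20 or more read pairs, MYB had 9 and LYL1 had 10. Most single contact counts were too low to order the interactions of a gene.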

Other observations

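A list of 26 other genes, mostly of the same families and complexes, was counted by the same rule. Of these 26 genes, 25 had at least 1 interaction within 50 kb, against 84.3% of all protein-coding genes. The median was 5 (median per 100 kb of window 2.34). ANXA1, a relative of ANXA2, had 23, and SSBP2, which encodes a protein that binds LDB1, had 18. ANXA5 had none. A start site lay in an anchor for 9 of the 26, against 26.6% of all protein-coding genes.

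Of 12 transcription factors of the B lineage, all had at least 1 interaction, against 84.3% of all protein-coding genes. Their median was 14, or 5.61 per 100 kb, beside 3 and 2.58 for the 10 genes and 4 and 2.41 for all protein-coding genes. BACH2, a repressor of plasma cell differentiation, had 65, and FOXO1, a factor of early B cell development, had 49. A start site lay in an anchor for 8 of the 12, beside 2 of the 10 and 26.6% of all protein-coding genes. These shares were not adjusted for the length of the genes. Both lists were chosen with earlier results known, and the difference between them was not tested.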
